A study of Mus musculus with 29 samples.

Results

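The genes examined here encode the mitochondrial respiratory chain and the ATP synthase, in primary cardiac fibroblasts of young and aged mice. Members were all protein-coding genes of the count table whose names begin with Nduf (followed by a subunit letter a, b, c, s or v and a number), are Sdha to Sdhd, begin with Uqcr, with Cox4 to Cox8 or with Atp5, or carry the mt- prefix of the mitochondrial genome. 101 of the table's 55357 genes matched, 88 of them nuclear and 13 on the mitochondrial genome. The nuclear members comprised 37 genes of complex I (7 core and 30 accessory), 4 of complex II, 8 of complex III, 19 of complex IV, 18 of complex V and the pair Ndufa4 and Ndufa4l2. Those of complex IV include Cox5b-ps, which carries a pseudogene suffix but is labelled protein-coding, and which was counted and tested with the others. The mitochondrial members comprised 7 genes of complex I, 1 of complex III, 3 of complex IV and 2 of complex V. The rule used names only and no measured value.

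RNA was counted in 29 libraries of primary cardiac fibroblasts, the matrix-producing cells of the heart, which the study compared to separate the effects of cell age, matrix age and matrix stiffness. Cells were taken from young mice (YCF) or aged mice (ACF) and were either lysed fresh or kept for 48 h on a DECIPHER substrate, a hydrogel that holds cardiac extracellular matrix (ECM). The 10 groups were fresh YCF, fresh ACF, and YCF or ACF each on SoftY, StiffY, SoftA or StiffA, where soft and stiff give the gel and Y and A the young or aged matrix. Every group had 3 libraries except YCF on SoftY, which had 2. Libraries are cited by the number in their title, and library 2 of YCF on SoftY carries number 3 in its library name. All cultured groups shared the hydrogel and the 48 h of culture, and no group was cultured without it. The sources used here give no strain, sex, age in months or pooling of mice. Titles number the libraries as biological replicates but name no animal, so each p rests on library-to-library spread alone, which may be technical. In the library names a letter follows fresh cells or substrate and a number follows cell age, so any difference in preparation between those sets cannot be told apart from the biology.

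The respiratory chain passes electrons from NADH (complex I) and succinate (complex II) through complex III to oxygen at complex IV, and the proton gradient made on the way drives complex V, the ATP synthase. Complexes I, III, IV and V are built from subunits of both genomes: the mitochondrial genome encodes hydrophobic core subunits and is transcribed as long precursors from both strands, while the remaining subunits and all of complex II are encoded in the nucleus. Nuclear promoters of these genes are known for sites of the factors NRF1, GABP (of the ETS family) and YY1. Fibroblasts carry far fewer mitochondria than the cardiomyocytes beside them and can rely strongly on glycolysis.

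Sequence was examined first for the nuclear promoters, because these genes share regulators known from other work. RefSeq start sites of build GRCm38.p6 gave a window from 250 bases before to 50 bases after the start for 69 of the 88 nuclear members. An NRF1 motif, the palindrome shown in capitals in the Ndufa11 window below, was searched on both strands and was present in 5 of 69 members (7.25%) and in 1.07% of 27025 genes with such a window. An ETS motif, CCGGAAG on either strand, was present in 17 of 69 (24.6%) against 9.93%, and a YY1 motif, AAGATGGC on either strand, in 10 of 69 (14.5%) against 3.19%. None of the 3 strings contains another, and a match describes letters and not binding. The 4 windows of 100 bases below, written 5′ to 3′ on the gene's strand with the matched letters in capitals, show 3 genes that were lower and 1 that was higher after culture of aged cells. Ndufa11, a membrane accessory subunit of complex I, lies at chr17:56717656-56717755 (plus strand) and holds the NRF1 letters. Ndufb7, also an accessory subunit of complex I, lies at chr8:83566658-83566757 (plus strand) and holds the ETS letters. Sdhd, a membrane anchor of complex II, lies at chr9:50603850-50603949 (minus strand) and holds them on the opposite strand. Atp5j, coupling factor 6 in the stalk of complex V, lies at chr16:84834999-84835098 (minus strand) and holds the YY1 and ETS letters.
Ndufa11: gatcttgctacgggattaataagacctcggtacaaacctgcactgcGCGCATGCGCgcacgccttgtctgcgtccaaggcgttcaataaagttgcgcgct
Ndufb7: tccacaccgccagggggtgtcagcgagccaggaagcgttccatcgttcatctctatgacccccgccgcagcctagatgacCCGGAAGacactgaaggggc
Sdhd: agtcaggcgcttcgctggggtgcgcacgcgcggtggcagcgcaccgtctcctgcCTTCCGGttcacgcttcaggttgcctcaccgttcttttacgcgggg
Atp5j: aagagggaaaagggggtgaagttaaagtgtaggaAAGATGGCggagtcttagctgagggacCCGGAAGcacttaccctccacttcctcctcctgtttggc

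Among the members with such a window, the ETS letters were present in 10 of 35 that were lower after culture of aged cells, in 0 of 8 that were higher and in 7 of 21 without a call. The YY1 letters were present in 6 of 35, 1 of 8 and 3 of 21, and the NRF1 letters in 1 of 35, 1 of 8 and 2 of 21. The remaining 5 members with a window did not pass the filter on low counts.

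A second set of sequences bears on how the mitochondrial genes could be counted. The nuclear genome holds a copy of a stretch of the mitochondrial genome on chromosome 1, annotated as 7 pseudogenes, and in the GENCODE M21 transcripts these copies match the mitochondrial genes almost letter for letter. Gm28437 is identical to mt-Co3 over 783 of 783 bases, Gm10925 to mt-Atp6 over 678 of 678, Gm28661 to mt-Co2 over 681 of 681 and Gm28439 to mt-Nd4 over 876 of 876. Gm29216 matches the end of mt-Co1 at 486 of 492 bases. All 6 differences fall in the first stretch of that match, shown here from base 1054 to base 1093 of mt-Co1, counted from the transcript's first base, with the differing bases in capitals.
mt-Co1: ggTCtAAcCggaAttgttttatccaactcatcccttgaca
Gm29216: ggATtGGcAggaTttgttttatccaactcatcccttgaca

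Of all windows of 50 bases in a mitochondrial transcript, the share also present in another annotated gene was 99.9% for mt-Co3, 99.5% for mt-Atp6, 100% for mt-Co2, 98.8% for mt-Nd4l, 98.0% for mt-Nd3, 62.2% for mt-Nd4 and 51.1% for mt-Co1. It was 8.2% for mt-Nd2, 7.6% for mt-Nd5 and 0% for mt-Nd1, mt-Nd6, mt-Cytb and mt-Atp8. The table assigned 2721 counts to mt-Co3 and 2444 to Gm28437 over the 29 libraries, 3337 to mt-Atp6 and 2804 to Gm10925, and 654 to mt-Co2 and 710 to Gm28661. The treatment of reads with several matches is not given in the sources used here. The levels of mt-Co2, mt-Co3, mt-Atp6, mt-Nd3 and mt-Nd4l are therefore uncertain, those of mt-Nd4 and mt-Co1 partly so, and a split between gene and copy cannot be told apart from the gene's own level. The plot of level against shared sequence shows the mitochondrial genes on that scale.

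**Figure D1:**
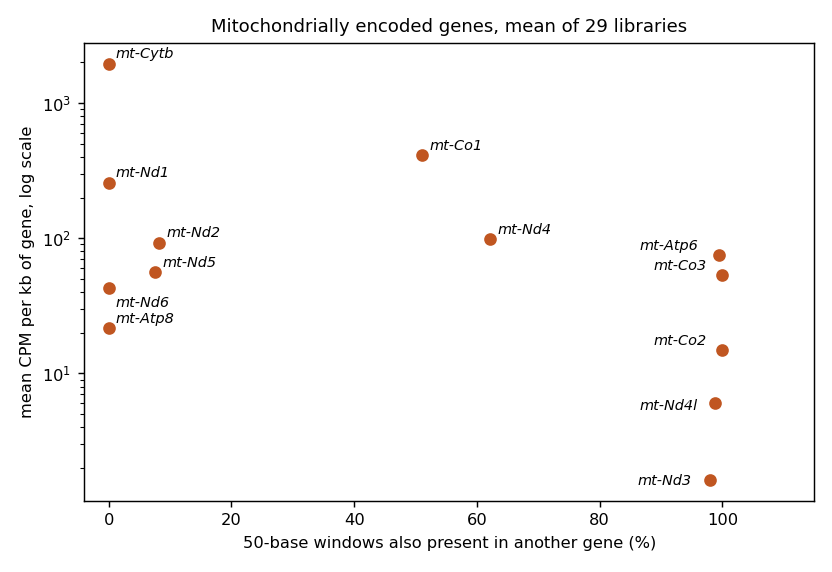
Mean level over 29 libraries in CPM per kb of gene (log scale) against the percent of 50-base windows also present in another gene, 1 point per mitochondrially encoded gene. The 5 genes above 90% on the x axis lie below 100 CPM per kb, and mt-Cytb, with 0% shared, lies highest at 1960 CPM per kb. Genes with little or no shared sequence also lie below 100 CPM per kb: mt-Nd2 (92.7), mt-Nd5 (56.2), mt-Nd6 (42.5) and mt-Atp8 (21.6). mt-Co1, partly shared, lies second highest at 412.

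Libraries held 1192668 to 3275089 counts with a median of 2438739, and the members took a small share of them: 0.719 to 0.921% came from the nuclear members and 0.265 to 0.416% from the mitochondrial ones. Levels are given as CPM, the count scaled to a common library total with TMM factors. A change is printed as the log2 fold change ± SE, followed by the Benjamini-Hochberg adjusted p that the edgeR quasi-likelihood model gave over every gene tested. "Rose", "fell" and "called" refer to an adjusted p under 0.05. The low-count filter passed 90 of the 101 members, 79 nuclear and 11 mitochondrial, in each of the 3 fits. In bulk RNA, fewer cells of a type and less RNA per cell cannot be told apart. The labelled cell type was checked on its markers. The 8 fibroblast markers summed to 6820 to 7180 CPM in fresh YCF, 6040 to 6460 CPM in fresh ACF and 14800 to 22500 CPM in cultured libraries. Of 19 cardiomyocyte markers, 16 had a mean under 1 CPM and their sum was 9.24 to 17.4 CPM in fresh and 19.9 to 47.7 CPM in cultured libraries. The 12 myeloid markers summed to 207 to 213 CPM in fresh YCF, 375 to 426 CPM in fresh ACF and 23.5 to 68.5 CPM in culture, so they moved with both age and culture, and their part in the results below was not tested.

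Compared per length of gene, mt-Cytb, the mitochondrial subunit of complex III, was the most abundant member at a mean of 1960 CPM per kb. It alone held 52.7 to 69.9% of all counts of mitochondrial members in a library. mt-Co1 followed at 412 CPM per kb and mt-Nd1 at 257 CPM per kb, and the highest nuclear member was Uqcr11, a small complex III subunit, at 197 CPM per kb. Then came Ndufa2 at 182, Ndufa13 at 166, Uqcr10 at 154 and Ndufa1 at 146 CPM per kb, all genes of small subunits of complexes III and I. The length used was that of the gene's merged exons, 641 bases for Uqcr11 but 4135 for Uqcrc1, which stood at 145 CPM per kb. This order of nuclear members therefore depends on the length chosen. At the other end, 11 members did not pass the filter. Ndufb11b, Cox7b2, Cox8c and a second gene named Atp5o had 0 counts in every library. Cox8b had 2 counts in all, Cox6a2 10, mt-Nd3 38, Cox7a1 41, Cox6b2 83, Atp5g2 107 and mt-Nd4l 113. Cox6a2, Cox7a1 and Cox8b are the heart and muscle isoforms of complex IV subunits, and they were near 0 beside their widely expressed partners Cox6a1 (137 CPM per kb) and Cox8a (128 CPM per kb).

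Summed over members, nuclear transcripts measured 8369 to 8684 CPM in the 3 fresh YCF libraries and 9018 to 9208 CPM in the 3 fresh ACF libraries, and the groups did not overlap. This order came with TMM factors of 1.063 to 1.076 in fresh YCF and 0.946 to 0.964 in fresh ACF. As a share of unscaled counts the order was the reverse. Nuclear members took 0.885 to 0.921% in fresh YCF and 0.865 to 0.868% in fresh ACF, also without overlap. Every cultured ACF library lay lower than fresh ACF, at 7152 to 8343 CPM over its 4 substrates. Cultured YCF libraries spread from 7156 to 8817 CPM and overlapped fresh YCF, while their unscaled share, 0.719 to 0.878%, lay below that of fresh YCF. The mitochondrial members summed to 3067 to 3602 CPM in fresh YCF, 3527 to 3640 CPM in fresh ACF, 2689 to 3897 CPM in cultured YCF and 3505 to 4176 CPM in cultured ACF.

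**Figure D2:**
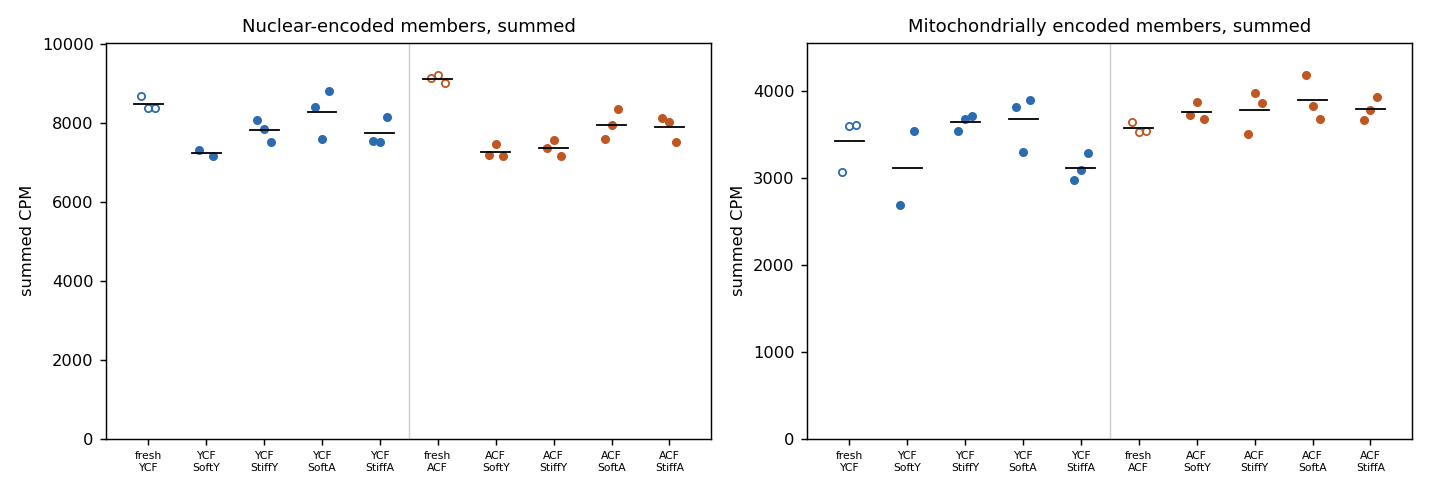
Summed CPM of the nuclear (left) and mitochondrially encoded (right) members in each library, by group, with the group mean as a bar; open points are fresh and filled points cultured, blue YCF and orange ACF. After TMM scaling, fresh ACF sits highest among the groups for nuclear members, at 9018 to 9208 CPM.

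In fresh cells, after TMM scaling, the members differed between ages mostly towards higher levels in aged cells. 19 of 79 nuclear members rose and 5 fell, and 5 of 11 mitochondrial members rose and 0 fell, where 16.1% of all 11786 genes tested were higher, 17.7% lower and 33.8% called in either direction. The median change was 0.10 over nuclear members, 0.31 over mitochondrial members and -0.02 over all genes. The count of nuclear calls rested on single libraries: 24 members were called with all 6, 14 without YCF library 2, 15 without YCF library 3 and 15 without ACF library 3, and DESeq2 called 10. Marker genes differed in the same comparison. Of the myeloid markers 6 of 9 tested were higher in fresh ACF and 0 lower, and all 8 fibroblast markers were called, 3 higher and 5 lower, with a median of -0.77. Endothelial markers summed to 154 to 165 CPM in fresh YCF and 194 to 204 CPM in fresh ACF. Neutrophil markers summed to 0.47 to 4.47 CPM and 9.54 to 12.5 CPM. The part of all these markers in the members' differences was not tested.

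Ndufa4l2 had the largest change of the 79 tested nuclear members, and both genes of the Ndufa4 pair rose. Ndufa4 encodes a subunit of complex IV despite its name, and Ndufa4l2 (ENSMUSG00000040280, chromosome 10, 127350836 to 127353024, mm39) is its hypoxia-inducible paralogue, also known as a transcript of pericytes. Ndufa4l2 measured 13.8, 16.2 and 12.2 CPM in fresh YCF and 29.4, 33.7 and 28 CPM in fresh ACF. Every aged library lay above every young one, at 1.06 ± 0.20, adjusted p = 0.000127. Ndufa4 measured 191, 156 and 157 CPM in young and 217, 228 and 226 CPM in aged libraries, again without overlap (0.38 ± 0.08, adjusted p = 0.000662). Pericyte and smooth muscle markers went the other way, with 0 of 4 tested higher and 3 lower and sums of 380 to 438 CPM in fresh YCF and 175 to 201 CPM in fresh ACF. Ndufa4l2 overlaps Shmt2, the mitochondrial serine hydroxymethyltransferase gene, in the table's coordinates, and Shmt2 was lower in fresh aged cells (-0.48 ± 0.07, adjusted p = 4.97e-06).

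In complex IV, 5 of 13 tested nuclear members rose in fresh aged cells and 1 fell, where 16.1% of all genes tested were higher and 17.7% lower. Cox6a1, the common isoform of subunit VIa, measured 75, 67.9 and 80.3 CPM in young and 102, 102 and 109 CPM in aged libraries (0.46 ± 0.11, adjusted p = 0.00121), and Cox4i1, the common isoform of subunit IV, measured 182, 184 and 185 CPM in young and 215, 224 and 236 CPM in aged ones (0.26 ± 0.07, adjusted p = 0.00685). Neither gene's ranges overlapped. The calls of Cox7b (0.37 ± 0.12), Cox6b1 (0.34 ± 0.12), Cox8a (0.31 ± 0.11) and Cox7a2l (-0.29 ± 0.11) were each lost in 2 to 4 of the 6 fits that left out 1 library. In complex V, 4 of 16 rose and 0 fell, beside the same shares of all genes. Atp5d, the delta subunit of the F1 central stalk, measured 81.5, 90.4 and 95.8 CPM in young and 126, 128 and 131 CPM in aged libraries (0.50 ± 0.10, adjusted p = 0.00016). Atp5b, the catalytic beta subunit, measured 514, 469 and 533 CPM in young and 612, 597 and 610.3 CPM in aged ones (0.23 ± 0.06, adjusted p = 0.00296). On the TMM scale the aged libraries were above all young ones for both genes. As shares of unscaled counts this held for Atp5d, and the ranges of Atp5b overlapped.

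Complex I had 6 of 36 nuclear members higher and 2 lower in fresh aged cells, where 16.1% of all genes tested were higher and 17.7% lower. Its share of higher members was thus near that of all genes. Ndufb7 rose by 0.37 ± 0.10, adjusted p = 0.00417, with 108, 133 and 100.5 CPM in young and 163, 148 and 144 CPM in aged libraries. These ranges did not overlap, while those of its share of unscaled counts did. Ndufa7 rose by 0.40 ± 0.11 and lost its call without ACF library 1 (adjusted p = 0.0535). The 2 lower calls, Ndufv3 (-0.33 ± 0.12) and Ndufb10 (-0.29 ± 0.11), were lost in 4 and 5 of 6 fits that left out 1 library. In complex II, Sdhc, a membrane anchor, changed by 0.44 ± 0.15 and Sdha, the flavoprotein that oxidises succinate, by -0.23 ± 0.07, and leaving out 1 library ended the calls in 2 and 4 of 6 fits. In complex III, Uqcrc1, a core protein, fell by 0.18 ± 0.06 (adjusted p = 0.012) and lost its call without ACF library 3 (adjusted p = 0.10), and Uqcrc2, the other core protein, rose by 0.28 ± 0.10 with the call lost in 5 of 6 such fits.

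Of the mitochondrial members, 3 of complex I rose in fresh aged cells. mt-Nd1 measured 274, 342 and 341 CPM in young and 419.8, 369.7 and 420.5 CPM in aged libraries (0.30 ± 0.08, adjusted p = 0.00464). mt-Nd4 measured 87.4, 111 and 106 CPM in young and 139.8, 132 and 130.3 CPM in aged ones (0.37 ± 0.10, adjusted p = 0.00393), and mt-Nd5 124, 158 and 171 CPM in young and 189.6, 201 and 198 CPM in aged ones (0.35 ± 0.09, adjusted p = 0.00424). On the TMM scale the aged libraries were above every young one for all 3 genes. As shares of unscaled counts this held for mt-Nd4, and the ranges of mt-Nd1 and mt-Nd5 overlapped. mt-Atp6, the proton channel subunit of complex V, measured 37.9, 43.9 and 58.7 CPM in young and 70.9, 61.6 and 70.9 CPM in aged cells (0.52 ± 0.15, adjusted p = 0.0065). Its counts before scaling were 110, 152 and 125 in young and 171, 148 and 180 in aged libraries. Those of its identical copy Gm10925 were 131, 123 and 100 in young and 111, 113 and 137 in aged libraries, with overlapping ranges. mt-Co3 rose by 0.44 ± 0.16, adjusted p = 0.0331, a call lost in 5 of 6 fits that left out 1 library, and its identical copy Gm28437 rose by 0.66 ± 0.18 (adjusted p = 0.00499). mt-Cytb (-0.11 ± 0.05, adjusted p = 0.0631) and mt-Co1 (0.06 ± 0.12, adjusted p = 0.741) were not called. The remaining tested genes were mt-Nd2 (0.06 ± 0.09), mt-Nd6 (0.30 ± 0.22), mt-Co2 (0.64 ± 0.29) and mt-Atp8 (0.28 ± 0.44), none of them called.

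Culture moved members in both directions. In young cells 12 of 79 nuclear members rose and 20 fell, and 2 of 11 mitochondrial members rose and 4 fell, where 26.8% of 13523 genes tested were higher, 29.6% lower and 56.5% called in either direction. In aged cells 10 nuclear members rose and 42 fell, and 1 mitochondrial member rose and 4 fell, against 29.7% higher, 32.2% lower and 61.9% called overall. The median change of nuclear members was -0.09 in young and -0.24 in aged cells, and that of all genes -0.03 and -0.01. Marker genes moved in the same comparisons. Of 9 tested myeloid markers, culture of young cells lowered 7 and culture of aged cells 9, and 0 were higher. Endothelial markers were lower in 7 of 8 and 6 of 8 cases and higher in 1 and 1, with medians of -1.51 and -0.74. Fibroblast markers were higher in 6 of 8 and 5 of 8 cases and lower in 1 and 2. The part of these markers in the members' changes was not tested. The plot of changes by complex sets the 3 comparisons side by side; the culture comparisons share their fresh libraries with the age comparison of fresh cells.

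**Figure D3:**
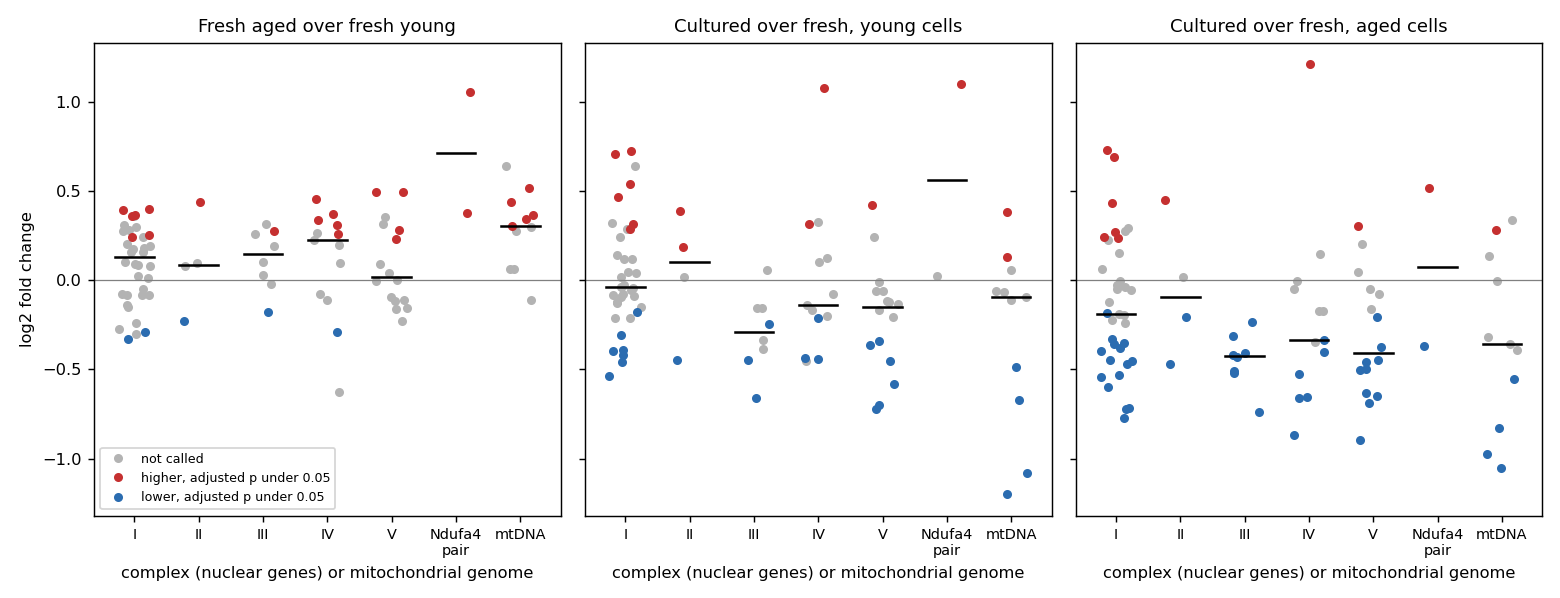
Log2 fold change of each tested member, by complex for nuclear genes and together for the mitochondrial genome (mtDNA), in 3 comparisons; red points were called higher, blue lower and grey not called, and bars are medians. All 8 complex III members lie below 0 and are called after culture of aged cells, and the median of the mtDNA genes lies at 0.31 in fresh aged over young cells.

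Mitochondrial transcripts did not move together in culture. Of the 5 tested complex I genes of the mitochondrial genome, mt-Nd1, mt-Nd2, mt-Nd5 and mt-Nd6 fell at both ages, while mt-Cytb rose in aged cells. mt-Nd5 measured 124, 158 and 171 CPM in fresh and 37 to 118 CPM (median 72.8) in the 11 cultured YCF libraries, a change of -1.08 ± 0.16, adjusted p = 3.08e-06. In aged cells it measured 189.6, 201 and 198 CPM in fresh and 70.5 to 128 CPM (median 93.2) in the 12 cultured libraries (-1.05 ± 0.15, adjusted p = 2.08e-06). Every cultured library was below every fresh one of its age.

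mt-Nd1 measured 274, 342 and 341 CPM in fresh and 153 to 304 CPM (median 200.2) in cultured YCF (-0.67 ± 0.10, adjusted p = 3.56e-06), where 1 cultured library on SoftA reached the fresh range. In ACF it went from 419.8, 369.7 and 420.5 to 198 to 280.1 CPM (median 220.4) without overlap (-0.83 ± 0.10, adjusted p = 5.66e-08). mt-Nd6, the gene on the opposite strand of the others, measured 22, 38.7 and 37.1 CPM in fresh and 8.15 to 22.3 CPM (median 13.8) in cultured YCF (-1.20 ± 0.22, adjusted p = 1.94e-05). It measured 46, 30 and 46.9 CPM in fresh and 10.8 to 32.9 CPM (median 23.2) in cultured ACF (-0.98 ± 0.21, adjusted p = 0.000132). In both cases the lowest fresh library lay within the range of the cultured ones. mt-Nd5 and mt-Nd6 overlap at their ends on opposite strands, and the strand setting of the counting is not given in the sources used here, so reads there cannot be told apart. mt-Nd2 fell in young (-0.49 ± 0.10, adjusted p = 4.9e-05) and aged cells (-0.55 ± 0.10, adjusted p = 4.87e-06).

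mt-Cytb measured 1929, 2001 and 1865 CPM in fresh ACF and 2139 to 2532 CPM (median 2366) in cultured ACF, and all 12 cultured libraries lay above the 3 fresh ones (0.28 ± 0.06, adjusted p = 2.83e-05). In YCF it measured 1886, 2100.0 and 2133 CPM fresh and 1751 to 2513 CPM (median 2296) cultured, and the ranges overlapped (0.13 ± 0.06, adjusted p = 0.044). That call was lost in 5 of 14 fits that left out 1 library: without fresh library 1 (adjusted p = 0.166), fresh library 2 (0.0599), SoftY library 2 (0.0633), StiffY library 1 (0.0516) or StiffA library 3 (0.0642). mt-Nd4 rose in young cells (0.38 ± 0.09, adjusted p = 0.000198), with 87.4, 111 and 106 CPM fresh and 108 to 159.5 CPM (median 138) cultured, and was not called in aged cells (0.14 ± 0.08, adjusted p = 0.157). mt-Co1 was not called in young (-0.06 ± 0.15, adjusted p = 0.766) or aged cells (0.34 ± 0.15, adjusted p = 0.0611), and the ranges of the fresh and cultured libraries overlapped at both ages. mt-Co2, mt-Co3, mt-Atp6 and mt-Atp8 had no call at either age, at -0.07 ± 0.28, 0.06 ± 0.19, -0.11 ± 0.16 and -0.10 ± 0.40 in young and -0.39 ± 0.26, -0.00 ± 0.18, -0.32 ± 0.15 and -0.36 ± 0.39 in aged cells.

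Because mitochondrial genes are transcribed as long precursors, mt-Nd1, mt-Nd2, mt-Nd4, mt-Nd5, mt-Nd6 and mt-Co1 were also set against mt-Cytb within the same library. Of these, mt-Nd6 lies on the opposite strand and does not share a precursor with mt-Cytb. Such a ratio does not depend on the scaling of libraries. It does move with mt-Cytb itself, which was called higher in culture at both ages, so a lower ratio in part restates that rise. mt-Nd5 stood at 6.60 to 8.02% of mt-Cytb in fresh YCF and 1.80 to 5.33% in cultured YCF, and at 9.83 to 10.6% in fresh ACF and 2.97 to 5.46% in cultured ACF. mt-Nd1 stood at 14.5 to 16.3% and 7.45 to 12.1% in YCF and at 18.5 to 22.5% and 8.67 to 12.9% in ACF. mt-Nd6 stood at 1.17 to 1.84% and 0.381 to 0.943% in YCF and at 1.5 to 2.51% and 0.445 to 1.45% in ACF. mt-Nd2 stood at 5.69 to 6.49% and 3.05 to 5.22% in YCF and at 6.68 to 6.88% and 3.23 to 4.59% in ACF. No cultured library reached the fresh range of its age in the ratios of mt-Nd1, mt-Nd2, mt-Nd5 and mt-Nd6. The ranges of mt-Nd4 overlapped at both ages, at 4.63 to 5.27% and 5.01 to 7.21% in YCF and 6.57 to 7.25% and 5.23 to 7.46% in ACF. The ranges of mt-Co1 overlapped, with medians of 26.6% of mt-Cytb in fresh and 24.8% in cultured YCF, and of 32.7% and 33.2% in ACF.

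**Figure D4:**
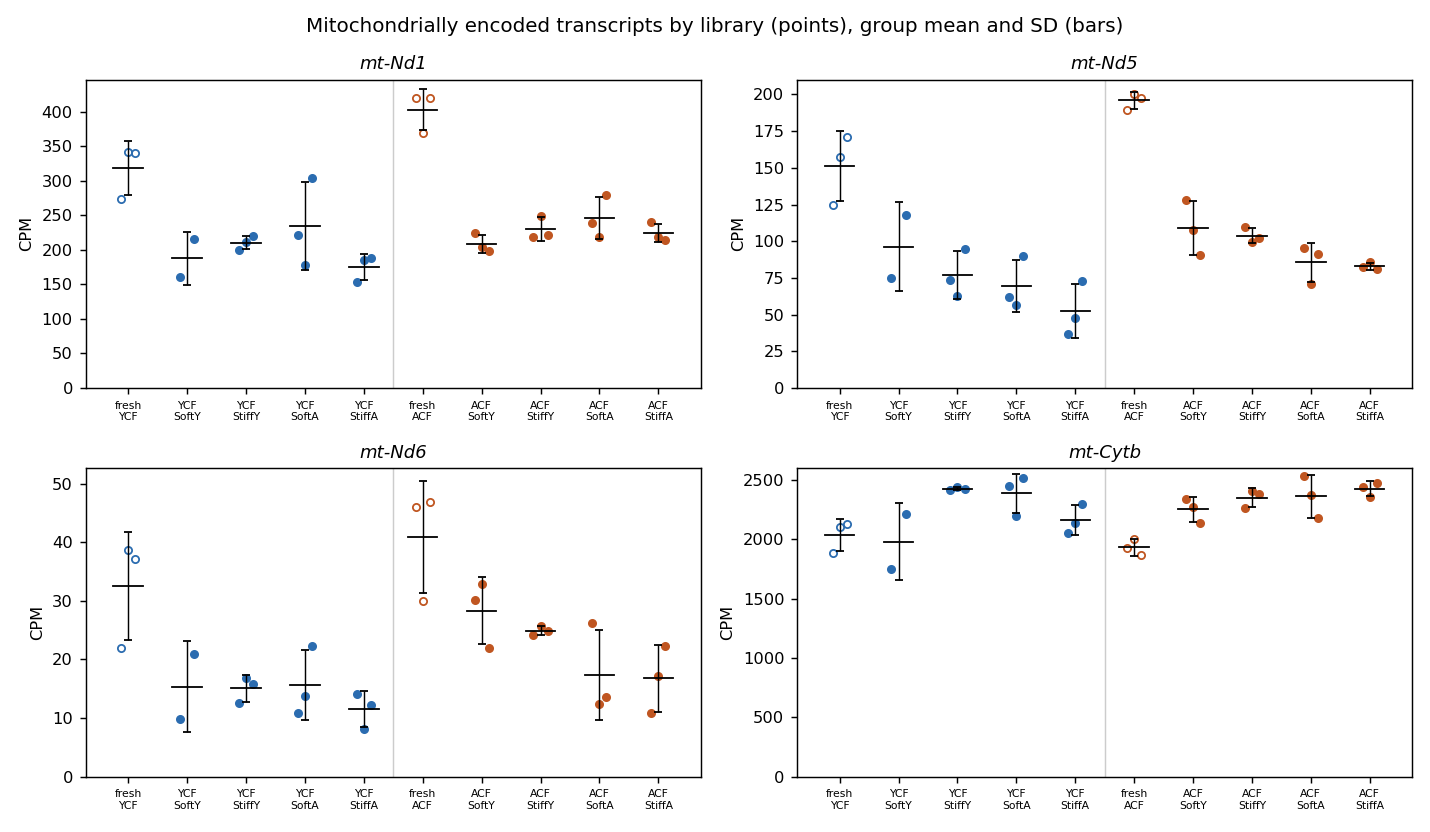
CPM of 4 mitochondrially encoded genes in each library (points), with group means and SDs as bars; blue is YCF, orange ACF, open points fresh and filled points cultured. mt-Nd1, mt-Nd5 and mt-Nd6 are lower in cultured than in fresh groups, and mt-Cytb in cultured ACF, from 2139 to 2532 CPM, lies above fresh ACF.

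The 2 mitochondrial ribosomal RNAs had no call in any comparison of fresh and cultured cells or of cell ages.

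Among nuclear genes, complexes I, III, IV and V each had more members lower than higher at both ages. In complex V, the young cells had 6 of 16 lower and 1 higher, and the aged cells 10 lower and 1 higher. Beside these stand the shares of all genes, 29.6% lower and 26.8% higher in young and 32.2% and 29.7% in aged cells. Atp5a1, the alpha subunit of the catalytic head (ENSMUSG00000025428, chromosome 18, 77861429 to 77870570, mm39), measured 381, 362 and 397 CPM in fresh and 183 to 296 CPM (median 235) in cultured YCF (-0.70 ± 0.08, adjusted p = 3.4e-09). In ACF it went from 396, 386 and 381 CPM to 201 to 322 CPM (median 235) (-0.69 ± 0.08, adjusted p = 2.52e-09). The fresh and cultured libraries did not overlap at either age.

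Subunit c forms the rotating ring of complex V and comes from 3 genes with the same mature protein, here under their older names. Atp5g1 measured 61.2, 54 and 61.1 CPM in fresh and 29.6 to 50.8 CPM (median 35.3) in cultured YCF (-0.72 ± 0.12, adjusted p = 2.4e-06), and 72.6, 58.7 and 53.9 CPM and 25.3 to 43.4 CPM (median 33.6) in ACF (-0.89 ± 0.12, adjusted p = 2.05e-08). Atp5g3 fell by 0.58 ± 0.11 in young (adjusted p = 9.4e-06) and by 0.38 ± 0.11 in aged cells (adjusted p = 0.00239), and Atp5g2 was too low to test. Atp5g1 stood at 42.7 to 49.0% of Atp5g3 in fresh and 36.0 to 58.1% in cultured YCF, and at 46.3 to 56.8% and 25.2 to 45.5% in ACF, where the ranges did not overlap. Atp5c1, the gamma shaft, changed by -0.45 ± 0.09 and -0.65 ± 0.09, and Atp5b by -0.34 ± 0.11 and -0.50 ± 0.10, all called. The higher calls were Atp5e in young cells (0.42 ± 0.13, adjusted p = 0.00544), lost without fresh library 2 (adjusted p = 0.0736), and Atp5o in aged cells (0.31 ± 0.12, adjusted p = 0.0289), lost without fresh library 1 (0.128) or 3 (0.135). The inhibitor of complex V, listed as Atpif1 and outside the name rule, rose at both ages (0.49 ± 0.14, adjusted p = 0.00325, and 0.57 ± 0.15, adjusted p = 0.00101).

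In complex III, 0 of 8 members rose, while 3 fell after culture of young cells and 8 after culture of aged cells. Uqcrfs1, the Rieske iron-sulfur protein (ENSMUSG00000038462, chromosome 13, 30724291 to 30729346, mm39), measured 136, 142 and 134 CPM in fresh and 71.5 to 104 CPM (median 87) in cultured YCF (-0.66 ± 0.10, adjusted p = 4.68e-07). In ACF it measured 136, 141 and 139 CPM and 66.8 to 110.0 CPM (median 79.4) (-0.74 ± 0.10, adjusted p = 3.11e-08), without overlap at either age. Uqcrc1 fell by 0.45 ± 0.06 (adjusted p = 9.11e-08) and 0.52 ± 0.06 (adjusted p = 1.72e-09). Cyc1, the cytochrome c1 subunit that the name rule leaves out, fell by 0.96 ± 0.08 in young and 1.02 ± 0.07 in aged cells (adjusted p = 5.71e-15 and 5.13e-16). In complex II, Sdhd fell at both ages (-0.45 ± 0.11, adjusted p = 0.000465, and -0.47 ± 0.11, adjusted p = 0.000167) while Sdha rose (0.19 ± 0.06, adjusted p = 0.00708, and 0.45 ± 0.06, adjusted p = 1.98e-08). Sdha measured 311, 343 and 286 CPM in fresh and 401 to 462 CPM (median 431) in cultured ACF, and Sdhd 119.5, 129 and 166 CPM and 87.2 to 129 CPM (median 95.8). Fresh and cultured ACF were apart for Sdha and overlapped for Sdhd.

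Complex I members moved in both directions. Of 36 nuclear members, 6 were higher and 7 lower in cultured young cells, against 6 higher and 15 lower in aged ones. Over all genes tested, 26.8% were higher and 29.6% lower in young cells, and 29.7% and 32.2% in aged cells. Both complex I shares in young cells were below those of all genes. None of the 7 core subunits rose at either age, and 2 fell in young and 5 in aged cells. Ndufs8, a core iron-sulfur subunit, measured 91.2, 88.7 and 88.8 CPM in fresh and 47.4 to 80.1 CPM (median 62) in cultured YCF (-0.54 ± 0.10, adjusted p = 8.88e-06), and 98.3, 95.7 and 96.5 and 51.6 to 69.4 CPM (median 57) in ACF (-0.72 ± 0.10, adjusted p = 1.8e-08). The accessory subunit Ndufa12 fell by 0.46 ± 0.08 (adjusted p = 6e-06) and 0.77 ± 0.08 (adjusted p = 2.66e-11). For both genes all cultured libraries were below the fresh ones of the same age.

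The higher calls of complex I were all accessory subunits. Ndufa13, also known as GRIM-19 (ENSMUSG00000036199, chromosome 8, 70346830 to 70355209, mm39), measured 144, 142 and 134 CPM in fresh and 201 to 281 CPM (median 232) in cultured YCF (0.72 ± 0.08, adjusted p = 1.95e-10). In ACF it measured 137, 142 and 129 CPM and 194 to 238 CPM (median 221) (0.69 ± 0.08, adjusted p = 4.84e-10), and the cultured libraries lay above all fresh ones at both ages. Its coordinates in the table overlap those of Tssk6 and Yjefn3, so shared reads are possible. Ndufv3 measured 64.3, 73.3 and 67.3 CPM in fresh and 94.7 to 133 CPM (median 114) in cultured ACF (0.73 ± 0.10, adjusted p = 1.28e-08) and rose in young cells by 0.47 ± 0.09, adjusted p = 3.8e-05. Ndufa11 rose by 0.54 ± 0.14 and 0.43 ± 0.14 and Ndufa3 by 0.31 ± 0.10 and 0.24 ± 0.10. Ndufa7 rose in young cells (0.71 ± 0.10, adjusted p = 1.07e-07) and was not called in aged cells (0.15 ± 0.10, adjusted p = 0.181).

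In complex IV, 2 of 13 tested members were called higher and 3 lower in young cells, against 1 and 6 in aged cells. Both shares in young cells were below the 26.8% and 29.6% of all genes, and those of all genes in aged cells were 29.7% and 32.2%. Cox4i2, the isoform of subunit IV known from lung and from responses to low oxygen (ENSMUSG00000009876, chromosome 2, 152596093 to 152606958, mm39), measured 8.60, 3.46 and 6.11 CPM in fresh and 10 to 16.5 CPM (median 12.5) in cultured YCF (1.08 ± 0.26, adjusted p = 0.00045). In ACF it went from 4.56, 2.91 and 4.33 to 7.05 to 12.9 CPM (median 8.61) (1.21 ± 0.29, adjusted p = 0.00043), and the cultured libraries lay above the fresh ones at both ages. It remained a small part of the subunit IV transcripts, at 1.89 to 4.72% of Cox4i1 in fresh and 3.70 to 8.50% in cultured YCF, and at 1.3 to 2.12% and 3.53 to 6.67% in ACF. Pericyte and smooth muscle markers, given below beside Ndufa4l2, moved in the same comparisons, and their part in the change of Cox4i2 was not tested. Cox7a2, the common isoform of subunit VIIa, fell by 0.43 ± 0.12 in young (adjusted p = 0.00231) and 0.87 ± 0.12 in aged cells (adjusted p = 1.87e-08). Cox5a fell in aged cells (-0.66 ± 0.12, adjusted p = 3.77e-06), and in young cells (-0.44 ± 0.12, adjusted p = 0.00173) with the call lost without fresh library 1 (adjusted p = 0.0517).

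Ndufa4l2 rose in culture at both ages, from 13.8, 16.2 and 12.2 CPM to 20.8 to 46.4 CPM (median 28.3) in YCF (1.10 ± 0.17, adjusted p = 4.77e-07) and from 29.4, 33.7 and 28 CPM to 27.6 to 65.1 CPM (median 43.8) in ACF (0.52 ± 0.15, adjusted p = 0.00276). The young ranges did not overlap, and the aged ones did. Ndufa4 was not called in young cells (0.02 ± 0.07, adjusted p = 0.802) and fell by 0.37 ± 0.07 in aged cells (adjusted p = 2.18e-05). Ndufa4l2 stood at 7.22 to 10.4% of Ndufa4 in fresh and 10.7 to 25.5% in cultured YCF, and at 12.4 to 14.8% and 15.7 to 37.6% in ACF, so every cultured library was above the fresh ones of its age. Of 5 tested pericyte and smooth muscle markers, 3 were higher and 1 lower in young cells, and 3 were higher and 0 lower in aged cells. Their sums overlapped in YCF, at 380 to 438 CPM in fresh and 405 to 817 CPM in cultured libraries, and were apart in ACF, at 175 to 201 and 520 to 651 CPM. Their part was not tested. Shmt2, which overlaps Ndufa4l2, fell at both ages (-1.68 ± 0.08, adjusted p = 5.50e-22, and -1.39 ± 0.08, adjusted p = 5.03e-19).

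**Figure D5:**
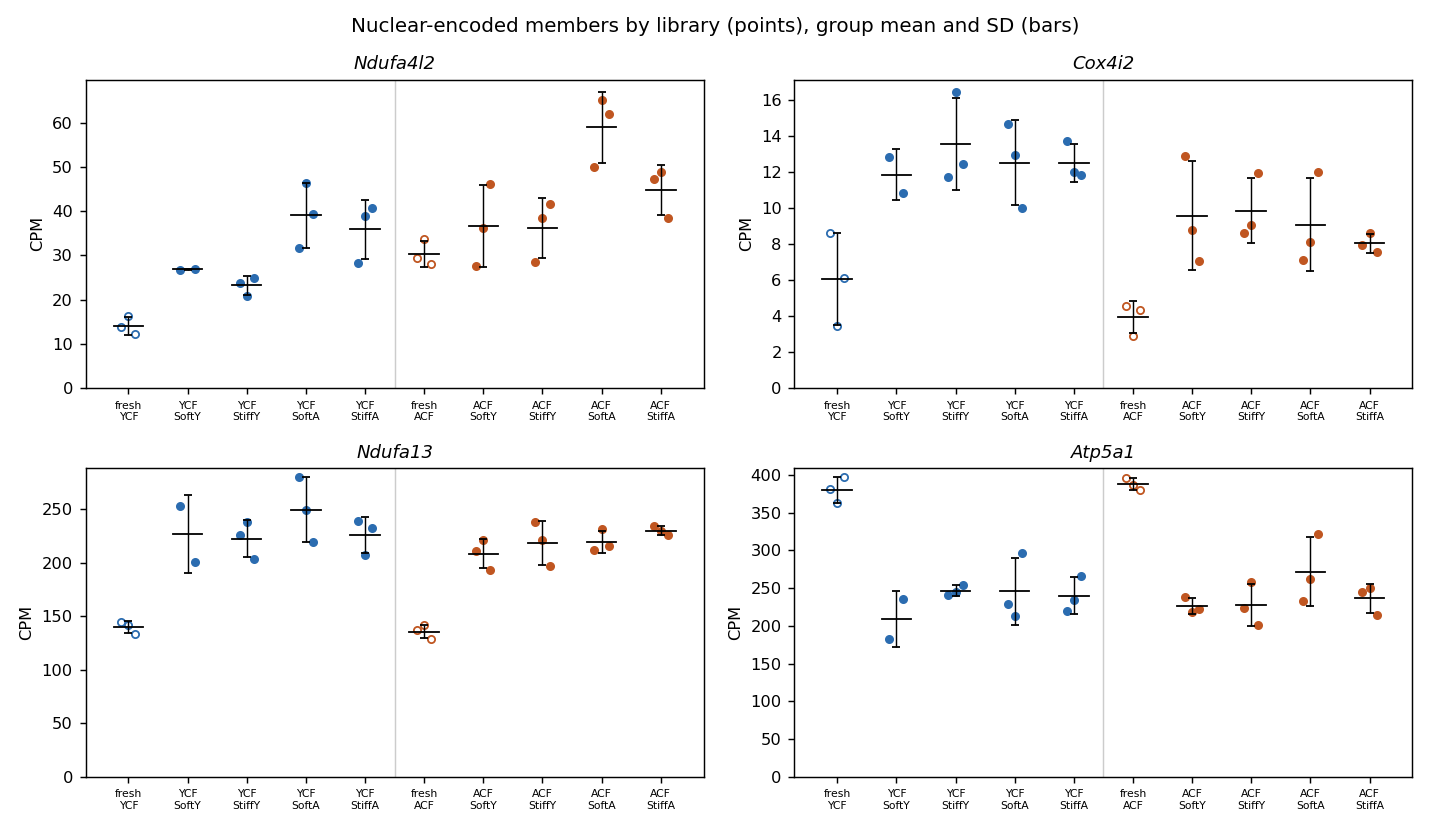
CPM of 4 nuclear members in each library (points), with group means and SDs as bars; blue is YCF, orange ACF, open points fresh and filled points cultured. Cox4i2 and Ndufa13 are higher and Atp5a1 lower in every cultured group than in the fresh group of the same age, and Ndufa4l2 is highest in ACF on SoftA.

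The culture response itself was tested for a difference between ages. 4 of 79 nuclear members responded more positively and 7 more negatively in aged cells, where 10.5% of 13523 genes were higher, 10.1% lower and 20.6% called in either direction. 0 of 11 mitochondrial members were called by edgeR, 1 at an unadjusted p under 0.05 and 0 by DESeq2. The count of nuclear calls ran from 4 to 14 over fits that left out 1 library. It was 7 without fresh YCF library 1, fresh ACF library 3 or ACF SoftA library 2, 5 without fresh YCF library 2, and 4 without fresh YCF library 3 or fresh ACF library 1. Ndufa7 kept its call in every fit that left out 1 library (-0.56 ± 0.14, adjusted p = 0.00267), and its 2 responses were 0.71 ± 0.10 in young and 0.15 ± 0.10 in aged cells. Ndufa4 (-0.39 ± 0.10, adjusted p = 0.00477) and Atp5j (-0.40 ± 0.11, adjusted p = 0.00815) lost their calls only without fresh YCF library 2 (adjusted p = 0.0680 and 0.0723).

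Ndufa7 measured 84, 78.8 and 65.8 CPM in fresh YCF, 112, 106 and 92.1 CPM in fresh ACF, 102 to 155 CPM (median 119) in cultured YCF and 93.8 to 138 CPM (median 113) in cultured ACF. The cultured ranges overlapped. The fresh ranges were apart on the TMM scale and overlapped as shares of unscaled counts. Atp5j likewise measured 158, 139.5 and 145 CPM in fresh YCF and 173, 196 and 182 CPM in fresh ACF, and 129 to 156 CPM (median 146) and 111 to 156 CPM (median 134) after culture.

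Between cultured cells of different age, most nuclear members showed no call. 1 of 79 was higher and 4 lower in ACF, and 5 of 11 mitochondrial members were higher and 0 lower, where 6.48% of 12841 genes were higher, 7.66% lower and 14.1% called in either direction. mt-Co1, the catalytic core of complex IV, measured 427 to 752 CPM (median 553) in YCF and 541 to 918 CPM (median 782) in ACF (0.49 ± 0.10, adjusted p = 0.00394), with overlapping ranges. Its call held in all 23 fits that left out 1 library. The chromosome 1 copy Gm29216, which matches its end, was higher as well (0.80 ± 0.16, adjusted p = 0.000772). mt-Nd6 was higher by 0.55 ± 0.16, adjusted p = 0.0159, a call lost only without YCF SoftY library 1 (adjusted p = 0.0755). mt-Nd5 (0.40 ± 0.12, adjusted p = 0.0267), mt-Co3 (0.41 ± 0.13, adjusted p = 0.0373) and mt-Atp6 (0.34 ± 0.11, adjusted p = 0.0339) lost theirs in 8, 14 and 11 of 23 such fits.

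The mitochondrial count of 5 thus moved with single libraries, to 1 without YCF SoftY library 1 and to 8 without YCF SoftY library 2 or YCF SoftA library 3. It was 2 without YCF SoftA library 2, ACF SoftA library 3 or YCF StiffA library 2. It was 3 without ACF SoftY library 1, YCF StiffY library 1, YCF SoftA library 1, YCF StiffA library 1, ACF StiffA library 1 or ACF StiffA library 3. All 11 tested mitochondrial members had a positive estimate, with a median of 0.34, against -0.03 for nuclear members. Of the nuclear members, Ndufa4l2 was higher in cultured ACF (0.50 ± 0.10, adjusted p = 0.000475), and Uqcrc1 was lower (-0.22 ± 0.05, adjusted p = 0.000534), at 517 to 663 CPM (median 606) in YCF and 442 to 599.9 CPM (median 525) in ACF. Both calls held in every fit that left out 1 library. The nuclear count of 5 ran from 2 to 9 over those fits, and the calls of Ndufv1 (-0.20 ± 0.06), Ndufa12 (-0.18 ± 0.06) and Cox4i2 (-0.47 ± 0.15) were lost in 11, 16 and 12 of 23. Fibroblast markers were lower in cultured ACF in 6 of 8 cases and endothelial markers higher in 6 of 8.

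Stiffness of the gel gave no call among the members. Averaged over matrix age, 0 of 79 nuclear and 0 of 11 mitochondrial members were called by edgeR in young cells, where 4.01% of 12841 genes were called, and 0 and 0 in aged cells, where 0.327% were. At an unadjusted p under 0.05 there were 2 nuclear and 1 mitochondrial member in young and 1 and 0 in aged cells, and DESeq2 called 0 in each. The widest estimates were 0.54 (log2) in young and -0.40 in aged cells. Ndufa7, with the smallest p in young cells, was at -0.25 ± 0.09, adjusted p = 0.141, and Ndufv2, with the smallest in aged cells, at 0.17 ± 0.07, adjusted p = 0.825.

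Matrix age moved Ndufa4l2 in both cell ages. In young cells it measured 26.7 and 26.9 CPM on SoftY, 23.8, 20.8 and 24.9 on StiffY, 31.6, 46.4 and 39.3 on SoftA and 28.3, 38.8 and 40.6 on StiffA. All 6 libraries on aged matrix were above all 5 on young matrix (0.60 ± 0.15, adjusted p = 0.0191). The call was lost without SoftY library 1 (adjusted p = 0.0803), SoftY library 2 (0.0597), StiffY library 2 (0.0635), SoftA library 2 (0.0714) or StiffA library 3 (0.0540), with log2 changes from 0.52 to 0.61. In aged cells it measured 27.6, 36.2 and 46.1 CPM on SoftY, 28.5, 38.5 and 41.6 on StiffY, 50, 65.1 and 62 on SoftA and 47.4, 48.8 and 38.4 on StiffA. The ranges overlapped there (0.52 ± 0.13, adjusted p = 0.0106), and the call was lost without SoftY library 1 (0.42, adjusted p = 0.0550). The interaction of cell age with matrix age was -0.09 ± 0.20, adjusted p = 0.947. 1 of 4 tested pericyte and smooth muscle markers was lower on aged matrix at each cell age and 0 were higher, while 0 of 8 endothelial markers in young and 4 of 8 in aged cells were higher. The overlapping Shmt2 was higher on aged matrix in aged cells (0.35 ± 0.10, adjusted p = 0.0155) and not called in young cells (0.04 ± 0.10, adjusted p = 0.919).

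Ndufa4l2 was the single member called for matrix age in young cells, where 2.82% of 12841 genes were called. There, 0 of 11 mitochondrial members passed by edgeR, 1 at an unadjusted p under 0.05 and 0 by DESeq2. In aged cells 5 of 79 nuclear members rose and 0 fell, and 0 of 11 mitochondrial members rose and 1 fell, against 4.37% of genes higher, 3.24% lower and 7.61% called in either direction. The others were Atp5pb (0.24 ± 0.07, adjusted p = 0.022), Atp5d (0.38 ± 0.11, adjusted p = 0.0284), Cox7a2l (0.27 ± 0.08, adjusted p = 0.0295), Ndufa8 (0.23 ± 0.07, adjusted p = 0.0455) and mt-Nd6 (-0.68 ± 0.21, adjusted p = 0.0342). These calls were lost in 8, 9, 7, 11 and 9 of 12 fits that left out 1 aged library. mt-Nd6 measured 30.2, 32.9 and 22 CPM on SoftY, 24.2, 25.7 and 24.9 on StiffY, 26.2, 12.3 and 13.5 on SoftA and 10.8, 17.2 and 22.3 on StiffA, and the matrix ages overlapped.

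A dependence of the stiffness difference on matrix age in young cells was called for 2 members, where 1.03% of 12841 genes were called. At an unadjusted p under 0.05 there were 19 of 79 nuclear and 5 of 11 mitochondrial members. Over fits that left out 1 young library, the median change ran from -0.32 to -0.14 for nuclear members. For mitochondrial members it ran from -0.92 to -0.28, so negative estimates were not particular to the 2 called members. Cox7a2 measured 51.8 and 41.3 CPM on SoftY and 56.9, 61.6 and 72.4 on StiffY, but 75.6, 60.6 and 70.8 on SoftA and 55.3, 41.2 and 40.6 on StiffA. Stiff libraries were thus above soft ones on young matrix and below them on aged matrix (-1.01 ± 0.26, adjusted p = 0.0485). mt-Cytb measured 1751 and 2211 CPM on SoftY, 2417, 2438 and 2425 on StiffY, 2450.0, 2201 and 2513 on SoftA and 2054, 2138 and 2296 on StiffA, and the soft and stiff libraries overlapped on aged matrix (-0.45 ± 0.11, adjusted p = 0.0314). Cox7a2 lost its call in 9 and mt-Cytb in 8 of 11 fits that left out 1 young library, and mt-Cytb came to -0.28 (adjusted p = 0.460) without SoftY library 1. The call of Cox7a2 was also lost with RLE scaling, and the SoftY arm held only 2 libraries. In aged cells 0 nuclear and 0 mitochondrial members were called by edgeR and by DESeq2, where 0.0389% of genes were, with 4 and 0 at an unadjusted p under 0.05. The interactions of cell age with stiffness (0.997% of genes called) and with matrix age (0.171%) also called 0 and 0 by both tools, with 1 and 0, and 2 and 0, at an unadjusted p under 0.05.

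Genes that serve the chain without belonging to it by the name rule were read as lists. Over all 13523 genes tested, 26.8% were higher and 29.6% lower in cultured young cells, with a median of -0.03, and 29.7% and 32.2% in cultured aged cells, with a median of -0.01. Of the mitochondrial ribosomal proteins, which translate the mitochondrial messages, 53 of 77 fell and 1 rose in cultured young cells, and 58 fell and 3 rose in aged cells, with medians of -0.52 and -0.68. Mrpl12 fell by 1.34 ± 0.11 and 1.27 ± 0.11 (adjusted p = 6.59e-14 and 1.48e-13). Of the factors of mitochondrial gene expression, 14 of 29 fell and 0 rose in young and 17 fell and 1 rose in aged cells, with medians of -0.47 and -0.51 and with Tbrg4, a mitochondrial RNA-binding factor, at -1.46 ± 0.13 and -1.70 ± 0.12. In fresh cells these lists held 4 higher and 5 lower, and 0 higher and 2 lower, in aged over young cells, where 16.1% of all genes were higher and 17.7% lower.

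Pyruvate dehydrogenase and the citric acid cycle, which feed the chain, had 10 of 18 genes lower and 2 higher in cultured young cells, and 12 lower and 1 higher in aged cells, with medians of -0.31 and -0.33, beside the 29.6% and 32.2% of all genes that were lower. Mdh2, mitochondrial malate dehydrogenase, fell by 0.90 ± 0.05 and 1.01 ± 0.05, while Pcx, pyruvate carboxylase, rose by 0.52 ± 0.12 and 0.75 ± 0.13. Of 51 assembly factors, 8 were higher and 13 lower in young and 11 higher and 18 lower in aged cells, shares of lower genes near those of all genes, with medians of -0.04 and -0.07. Cox10, which makes haem for complex IV, fell by 0.76 ± 0.12 and 1.07 ± 0.12, and Tmem126b, a complex I assembly factor, rose by 0.51 ± 0.11 and 0.78 ± 0.12. Of 20 carriers and subunits outside the name rule, 5 rose and 8 fell in young and 3 rose and 10 fell in aged cells, and Etfdh, which passes electrons from fatty acid oxidation to ubiquinone, rose by 0.54 ± 0.08 and 0.60 ± 0.09. Of 16 tested regulators of mitochondrial biogenesis, 9 were lower and 1 higher in young and 7 lower and 1 higher in aged cells, and Pprc1, a coactivator related to PGC-1, fell by 1.03 ± 0.08 and 0.72 ± 0.08. The lists were chosen by name and not as independent evidence of a direction.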

How the data were processed

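RNA-seq read counts per gene were analysed in 29 libraries of cardiac fibroblasts, made from 20 ng of RNA with a low-input kit, per the labels' protocols. The deposited table holds raw counts per gene; the submitters' processing notes name STAR 2.7.8a and the build mm39, and strand and multiple-match settings of the counting are not stated there. No pair of libraries held identical values. Totals ran from 1192668 to 3275089 counts, which limits precision for genes at a few CPM.

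Groups were taken from the sample titles. 13 comparisons were fitted with edgeR 4.0.16 (quasi-likelihood F test, robust, TMM scaling, filterByExpr by group, R 4.3.3) in 3 fits: the 6 fresh libraries for age in fresh cells, the 23 cultured libraries for contrasts within culture, and all 29 for culture against fresh. P-values were adjusted by Benjamini-Hochberg over all genes of a fit and called under 0.05. SEs were derived from F, dividing the absolute log2 change by its square root. CPM were computed from the counts over TMM-scaled totals. The procedure was tested on simulated data.

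The members, gene lists and markers were chosen with earlier results of these data known. The text names the mitochondrial genes, isoform pairs and, for each nuclear complex and direction, up to 2 called members of smallest p. Ndufa3, Ndufa11, Atp5b and Atp5c1 in culture, Atp5j and the members printed for stiffness were added after their values were seen. Alternatives were DESeq2 1.42.0, RLE scaling, scaling without mitochondrial genes, no filter on low counts, fits of 1 cell age alone, replicate blocks and leaving out each library. Shared sequence was computed from GENCODE M21 transcripts of build GRCm38 over windows of 50 bases for 100 of the 101 members, and promoters were taken from RefSeq (GRCm38.p6). Lengths for CPM per kb were the merged exons of the gene in GENCODE M21.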

Additional observations from a re-analysis of the deposited data

Results flagged for a closer look

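The culture response differed between cell ages, by a test of the difference itself, for 9 members picked by the naming rule. The differences, aged minus young on the log2 scale, were -0.56 for Ndufa7, -0.39 for Ndufa4, -0.40 for Atp5j, 0.26 for Sdha, -0.42 for Ndufb7, 0.36 for Cox7a2l, -0.58 for Atp5md, 0.36 for Ndufb10 and 0.39 for Ndufa6. Leaving out 1 library ended the call of Sdha, Ndufb7 and Cox7a2l in 3 of 29 fits each, of Ndufb10 and Ndufa6 in 7 each and of Atp5md in 19. The stiffness difference of young cells differed between matrix ages, likewise by a direct test, for mt-Cytb (-0.45) and Cox7a2 (-1.01).

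The chromosome 1 copies of mitochondrial genes, which no comparison of the members uses, held 7972 counts over the 29 libraries, from 135 to 443 per library. The design has no sample without these sequences, so reads from the copies and from the mitochondrial genes cannot be told apart.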

How the results depend on the processing

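No named gene's called change turned its direction under any alternative run. Medians near 0, which have no test, did change sign when 1 library was left out: that of mitochondrial members went from -0.10 to 0.05 without fresh YCF library 2 and 0.02 without fresh YCF library 3 for culture of young cells, and from -0.06 to 0.08 without fresh YCF library 1 and 0.06 without YCF SoftY library 2 for the difference in culture response. Over such fits it ran from -0.18 to 0.14 for matrix age in young cells and from -0.06 to 0.08 in aged cells, and some medians for stiffness and the interactions also crossed 0. DESeq2 called 10 nuclear members in fresh cells (24 in edgeR), 2 in cultured aged over young cells (5), and 3 nuclear and 0 mitochondrial members for matrix age in aged cells (5 and 1); it called 17 genes in all for the stiffness by matrix interaction in aged cells (5). With no filter on low counts, 5 nuclear members differed in culture response (11), 1 mitochondrial member was called for stiffness in young cells (0), 2 nuclear and 1 mitochondrial for matrix age in young cells (1 and 0), 3 and 2 for matrix age in aged cells, and 2 nuclear for the stiffness by matrix interaction in young cells (1). All genes called then came to 13 for that interaction in aged cells and 48 for cell age by matrix age (22). RLE scaling and scaling without mitochondrial genes each left 0 nuclear members for the young interaction.

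The labels do not say whether replicate numbers pair libraries, and the main fits used no block. Of 33 pairs of cultured libraries of 1 cell age with the same library number, 13 had correlated deviations over 0.1. With the same title number, 10 of 33 did. The median correlation was 0.08 for pairs of the same library number and -0.06 for other pairs. Of 23 libraries, 17 correlated best with their own library number. In every group of 3, mitochondrial rRNA also took its lowest share in the library of title number 2. Libraries of the same number thus resembled each other, and what they shared is not given. With the replicate block by library number within cell age, calls for matrix age came to 2 nuclear and 1 mitochondrial in young cells, and to 10 and 2, of 1635 genes, in aged cells. For the stiffness by matrix interaction they came to 3 and 2, of 280 genes, in young cells and to 16 genes in aged cells, and there were 64 genes for stiffness in aged cells and 45 for cell age by matrix age. Blocks by title number, or by library number shared between ages (chosen after seeing the data), moved no count by over 1.5 times.

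Leaving out 1 library at a time gave 14 to 24 nuclear members in fresh cells, 4 to 14 nuclear and 0 to 1 mitochondrial for the difference in culture response, and 2 to 9 and 1 to 8 for cultured aged over young cells. That nuclear count was 2 without YCF SoftY library 1, ACF SoftY library 2 or ACF StiffY library 1, 3 without YCF StiffY 1, ACF StiffY 2, YCF SoftA 1, ACF SoftA 2, ACF StiffA 1 or ACF StiffA 3, and 9 without YCF SoftA 3. Stiffness in young cells gave 0 to 1 nuclear, the 1 without YCF SoftA 3. Matrix age in young cells gave 0 to 2 nuclear, 0 to 1 mitochondrial and 230 to 398 genes. Matrix age in aged cells gave 1 to 4 nuclear, 0 to 1 mitochondrial and 634 to 1052 genes; the nuclear count was 1 without ACF SoftY 1, StiffY 1, StiffY 3, SoftA 3, StiffA 1 or StiffA 2. The stiffness by matrix interaction gave 0 to 3 nuclear, 0 to 3 mitochondrial and 57 to 242 genes in young cells and 3 to 8 genes in aged cells, and cell age by matrix age 10 to 37 genes.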
